A study of Mus musculus with 8 samples.

Results

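Expression of 8 genes of cholesterol metabolism was followed in microglia of the lumbar spinal cord. The genes were Hmgcs1, Idi1, Fdft1, Sqle and Cyp51, which encode enzymes of cholesterol synthesis, Insig1, which encodes a feedback regulator of that pathway, and Abca1 and Abcg1, which encode transporters that export cholesterol. They were taken by symbol from the 27998 genes of the deposited count tables, and all 8 had at least 1 read molecule in each of the 8 libraries. Microglia, the macrophages that reside in brain and spinal cord, were sorted from C57BL/6 mice by the YFP carried at the Cx3cr1 locus and profiled by droplet-based single-cell RNA-Seq, which tags every captured RNA with the barcode of its cell and with a unique molecular identifier, or UMI. 4 libraries came from Cx3cr1-yfp-creER/+ animals (control) and 4 from Cx3cr1-yfp-creER/+; Tnfaip3 fl/fl animals (A20 cKO, where A20 is the product of Tnfaip3). Each genotype was sampled once without injury (naive) and once on each of days 1, 2 and 3 following bilateral transection of the sciatic nerve. Both genotypes therefore carried the tamoxifen-inducible Cre driven by Cx3cr1, and the methods place the experiments after tamoxifen. The driver is active in Cx3cr1-expressing cells, and the share of cells with a recombined Tnfaip3 allele is not given in the sources used here. Each library was a pool of animals and each of the 8 groups had 1 library, so no test between groups was possible and no p-value is given. Ranges after values are 95% intervals that cover counting error only. The sorted cells of every library were suspended in a serum-free medium that contained cholesterol, TGF-β2 and IL34, and the part of this medium in the levels was not tested.

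Cells make cholesterol from acetyl-CoA through the mevalonate pathway, whose genes are switched on by the transcription factor SREBP2 when sterol in the endoplasmic reticulum is low and are held back by the INSIG proteins when it is high. Oxysterols that build up when cholesterol is plentiful activate the nuclear receptors LXRα and LXRβ, which induce the transporters ABCA1 and ABCG1, and these pass cholesterol to apolipoprotein E and other acceptors. Microglia are known for taking up cholesterol-rich myelin debris and for depending on this export route to clear it.

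The depth of the libraries bears on every value. Of 14883 barcodes, 14626 were kept as cells with at least 1000 UMIs, at least 500 genes and at most 10% mitochondrial UMIs. The kept cells held between 1620481 UMIs in control naive and 15817426 in control day 2, and the median per cell lay between 2780 and 4274 UMIs. All 7 microglia markers had UMIs in every library, and their summed level lay between 11339.3 and 23570.2 CPM (UMIs of the genes per 1000000 UMIs of the library). The libraries fell into unequal sets by their barcodes. Control day 3 and the 4 A20 cKO libraries shared 256 barcodes over their 10 pairs, a median of 13.7 per 1000000 possible pairs of cells, against 98 over 15 pairs with the other 3 libraries (1.94) and 27 over 3 pairs among those 3 (1.59). Markers of several other cell types moved with this split. In the 5 linked libraries the summed astrocyte markers lay between 260.6 and 393.6 CPM, against 105.3 to 164.1 CPM in control naive, day 1 and day 2, the oligodendrocyte markers between 219 and 289.7 against 137.3 to 148.7 CPM, and the neutrophil markers between 18.5 and 32.0 CPM against 0 in all 3. Most of the astrocyte sum was Slc1a3, at 252 CPM on control day 3 and 161 CPM in control naive. Slc1a3 was found in 55.3% and 33.5% of the sorted cells there, so this sum need not mark astrocytes. The highest value of any other astrocyte marker was Aldoc on A20 cKO day 2, at 11.5 CPM. The neuron markers lay between 3.36 and 12.9 against 1.23 to 2.78 CPM, and the monocyte and border macrophage markers between 3.48 and 5.61 against 1.28 to 2.47 CPM, with Ccr2 and Pf4 found in all 8 libraries and Cd163 in none. The microglia markers were lower in the linked libraries, at 11339.3 to 18119.1 against 19163.8 to 23570.2 CPM. The endothelial sum did not follow the split, at 26.8 to 44.3 against 13.6 to 51.2 CPM. In control naive that sum was Pecam1 alone, which was found in 13.4% of the sorted cells there. The other endothelial markers were higher in the linked libraries. Cldn5 lay between 0.561 and 4.80 CPM there, against 0 in control naive, day 1 and day 2. Flt1 lay between 1.68 and 3.54 against at most 0.0632 CPM, and Ly6c1 between 1.57 and 6.59 against at most 0.126 CPM. Of the lymphocyte markers, Cd3e and Ms4a1 were at 0 in all 8 libraries, while Nkg7 had 48 UMIs in 0.697% of cells on control day 2 and at most 2 UMIs in any other library. The part of these cells in the levels was not tested beyond leaving out cells with markers of 4 of these types. At the naive stage and on days 1 and 2 the genotypes also lay on different sides of this split, as did control day 3 and control naive, and there the split and the condition cannot be told apart. Comparisons within 1 side were control days 1 and 2 with control naive, the A20 cKO days with A20 cKO naive, and A20 cKO day 3 with control day 3. The 3 libraries outside the linked set were not linked to one another. Their pairs shared 1.48 to 2.29 barcodes per 1000000, within the 0.797 to 8.83 of their pairs with linked libraries. The barcodes therefore do not show that control naive was prepared with control days 1 and 2. Leaving out the barcodes found in more than 1 library changed no call and moved no level ratio of the 8 genes beyond its interval. From naive to day 3, Tnfaip3 itself was at 24.1, 25.3, 6.83 and 20.3 CPM in control and at 47.4, 42.3, 52.4 and 67.7 CPM in A20 cKO. These 3′ reads need not lie in the deleted part of the gene and so check neither the deletion nor the labels.

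On GRCm38, Hmgcs1 lies on chr13:119690379-119708260, Idi1 on chr13:8885501-8892451, Sqle on chr15:59315077-59331192, Insig1 on chr5:28071363-28078662 and Abcg1 on chr17:31057675-31117988, all on the plus strand. Fdft1 lies on chr14:63145150-63179578, Cyp51 on chr5:4081145-4104746 and Abca1 on chr4:53030787-53159895, on the minus strand. The promoters of the genes are shown because the enzymes, the regulator and the transporters are under different known controls. RefSeq promoters on the mouse build GRCm38.p6 were matched for 5 of the 8 genes, and 3 of them, 1 of each role, are printed 5′ to 3′ in the direction of the gene, with bases inside the annotated gene left out. Capitals mark matches, on either strand, to the sterol regulatory element TCACNCCAC bound by SREBP, to the NF-Y box CCAAT and to the Sp1 box GGGCGG, so that CCAAT on the opposite strand appears as ATTGG and GGGCGG as CCGCCC.
Hmgcs1, chr13:119690101-119690350, plus strand: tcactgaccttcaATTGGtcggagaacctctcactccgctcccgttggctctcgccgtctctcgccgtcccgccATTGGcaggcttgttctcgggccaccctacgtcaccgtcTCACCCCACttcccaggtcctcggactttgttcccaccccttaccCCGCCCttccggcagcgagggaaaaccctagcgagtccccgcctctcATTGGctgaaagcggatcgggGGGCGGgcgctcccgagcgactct
Insig1, chr5:28071162-28071362, plus strand: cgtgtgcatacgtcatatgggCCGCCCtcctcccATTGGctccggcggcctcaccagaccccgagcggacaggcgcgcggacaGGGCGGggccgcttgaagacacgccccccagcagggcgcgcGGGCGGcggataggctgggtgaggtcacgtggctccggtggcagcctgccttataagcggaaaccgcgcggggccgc
Abca1, chr4:53159896-53160145, minus strand: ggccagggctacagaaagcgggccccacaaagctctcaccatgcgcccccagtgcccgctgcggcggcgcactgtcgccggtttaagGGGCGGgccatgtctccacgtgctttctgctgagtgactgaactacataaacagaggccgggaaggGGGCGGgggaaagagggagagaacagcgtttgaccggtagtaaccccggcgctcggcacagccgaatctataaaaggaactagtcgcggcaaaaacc
In the 250 bases before the Hmgcs1 start 1 match to the sterol regulatory element lay 137 to 129 bases before the start, with 3 CCAAT boxes and 2 GGGCGG boxes around it. Insig1 held 1 CCAAT box and 3 GGGCGG boxes, Idi1 2 and 1, and Cyp51 1 and 1, and none of these 3 held a match to the sterol regulatory element. Abca1 held 2 GGGCGG boxes and no match to the other 2 motifs. A direct repeat was searched as a half-site GGTCA or GTTCA followed in the same orientation by another after 5 bases, which is one form of the repeats bound by LXR, and these letters were in none of the 5 promoters. With GGTTA also allowed as a half-site, a form chosen after the data were seen, the Abca1 promoter held 1 match on the opposite strand, 67 to 53 bases before the start and not marked by capitals, and the other 4 held none. Of 32851 promoters of this length, 1.05% held TCACNCCAC, 33.9% CCAAT, 32.7% GGGCGG, 0.161% the direct repeat and 0.317% its wider form. A match describes letters in this window and no match says only that these letters are not there.

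Hmgcs1 encodes the cytosolic HMG-CoA synthase at the entrance of the mevalonate pathway. From naive to day 3 the control libraries held 21.6, 16.6, 22.3 and 25.1 CPM, and the A20 cKO libraries 21.3, 16.8, 27.7 and 26.8 CPM. Day 1 was the lowest time point in both genotypes, but the intervals of the log2 ratio to naive included 0 in both (-0.90 to 0.17 in control and -0.81 to 0.11 in A20 cKO). In no pair of libraries next to each other in the order of levels did the interval of their ratio exclude 0, and the highest library was 1.67-fold above the lowest.

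Idi1 encodes the isopentenyl diphosphate isomerase. Its level was 14.2, 8.75, 18.1 and 14.6 CPM from naive to day 3 in control, and in A20 cKO 11.8, 20.5, 26.7 and 19.3 CPM. The control day 1 library was the lowest of all 8 and the only one of these that stood below its neighbour in the order beyond counting error. In A20 cKO the day 2 level was 2.27-fold that of naive (log2 ratio 1.18, 0.74 to 1.61), from 81 and 105 UMIs.

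Fdft1 encodes squalene synthase, the first enzyme that belongs to the sterol branch alone. From naive to day 3 the control libraries held 13.6, 9.75, 14.4 and 3.71 CPM, with 5.94, 6.93, 7.58 and 5.12 CPM in A20 cKO. All 5 linked libraries lay below the other 3, at 3.71 to 7.58 against 9.75 to 14.4 CPM, so the low level ran with the barcode split, control day 3 included. The Fdft1 gene on the minus strand of chromosome 14 overlaps Ctsb on the plus strand over 774 bases at 63145150 to 63145923 (GRCm38). Ctsb, a lysosomal protease gene of high level in these cells, was at 1768 to 1991 CPM in the control and 2192 to 3389 CPM in the A20 cKO libraries. The use of strand in counting is not given in the sources used here. Fdft1 values are uncertain to that extent.

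Sqle encodes squalene epoxidase, a rate-limiting enzyme of the late pathway. From naive to day 3 its level was 4.32, 11.5, 21.2 and 7.96 CPM in control. In A20 cKO it was 4.93, 10.2, 16.8 and 7.08 CPM. Both genotypes were lowest at the naive stage, highest on day 2 and lower again on day 3. Control day 2 was 4.597-fold above control naive (log2 ratio 2.20, 1.24 to 3.62) and control day 1 was 2.50-fold above it (1.32, 0.34 to 2.75). The naive sum behind both ratios was only 7 UMIs. A20 cKO day 2 was 3.40-fold above A20 cKO naive (1.77, 1.16 to 2.38), from 51 and 44 UMIs.

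Cyp51 encodes lanosterol demethylase, which begins the conversion of lanosterol to cholesterol. Its level was 21.0, 27.2, 36.2 and 23.1 CPM from naive to day 3 in the control libraries and 19.4, 29.1, 33.3 and 30.3 CPM in the A20 cKO libraries. Day 2 was again the highest time point of both genotypes, with log2 ratios to naive of 0.77 (0.29 to 1.33) in control and 0.78 (0.41 to 1.14) in A20 cKO. The order of levels held no neighbours that differed beyond counting error. Cyp51 overlaps Akap9 on the opposite strand.

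Insig1, the sterol-sensing protein that retains the SREBP complex in the endoplasmic reticulum and is itself an SREBP target, varied least. It was at 17.3, 17.2, 23.2 and 24.8 CPM from naive to day 3 in the control libraries and 19.3, 25.1, 26.7 and 19.3 CPM in the A20 cKO libraries, and the highest library was 1.55-fold above the lowest. Its log2 ratio on day 2 against naive was 0.40 (-0.13 to 1.04) in control and 0.47 (0.07 to 0.86) in A20 cKO.

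**Figure D1:**
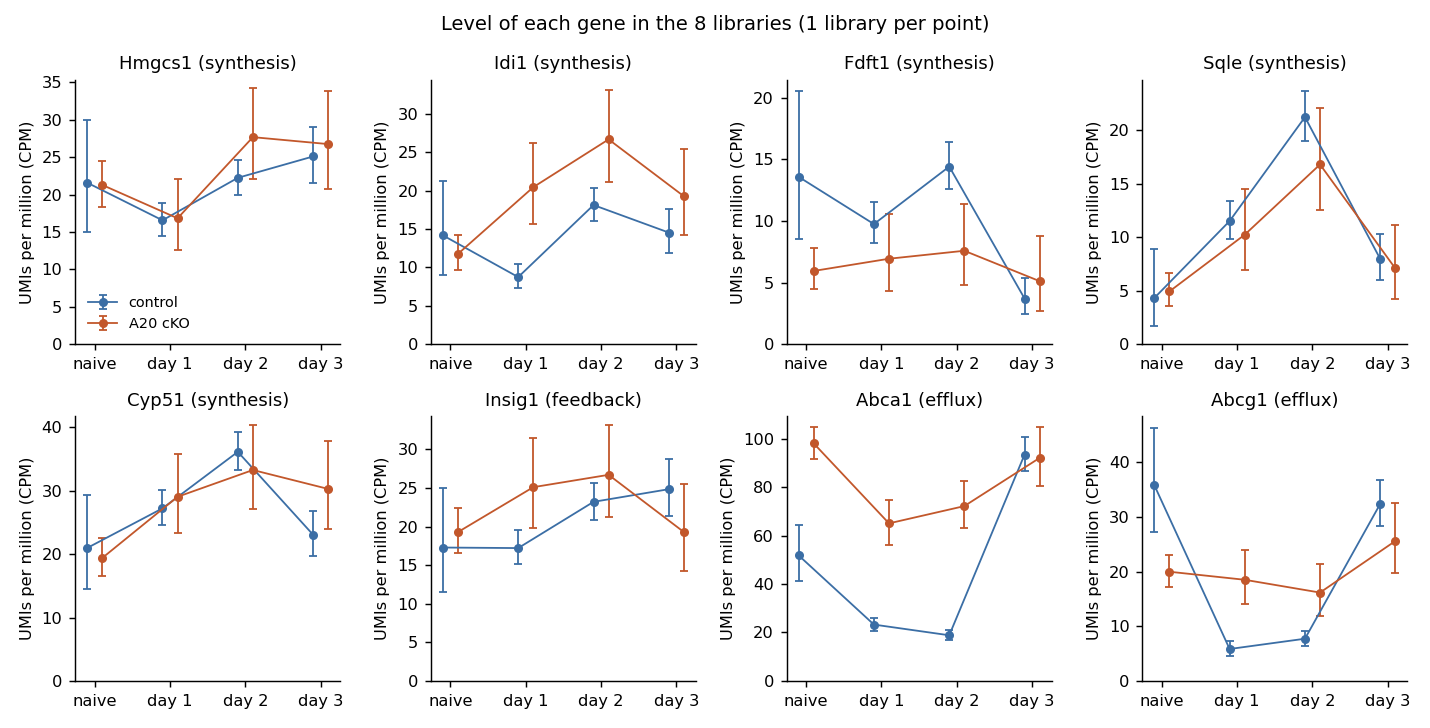
Level of each of the 8 genes in CPM (y axis, each panel on its own scale from 0) at the naive stage and on days 1 to 3 (x axis) in control (blue) and A20 cKO (orange), 1 library per point, with exact 95% Poisson intervals. Sqle peaks on day 2 at 21.2 and 16.8 CPM, and Abca1 and Abcg1 are lowest on days 1 and 2 of control, at 18.8 to 23.3 and 5.83 to 7.71 CPM.

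The sum of the 6 synthesis and feedback genes was 92.0, 91.1, 135 and 99.2 CPM from naive to day 3 in control. In A20 cKO it was 82.6, 109, 139 and 108 CPM. Day 2 was the highest time point in each genotype. The log2 ratio of day 2 to naive was 0.55 (0.32 to 0.81) in control and 0.75 (0.57 to 0.92) in A20 cKO. On day 1 it was -0.02 (-0.26 to 0.24) in control and 0.40 (0.20 to 0.58) in A20 cKO. The sum differed between genotypes by log2 ratios between -0.16 at the naive stage and 0.26 on day 1, and 0 lay outside the interval on day 1 only (0.08 to 0.43). That day 1 difference was 0.06 relative to the median gene, whose log2 ratio was 0.20 there, and its sign turned with edgeR and median-of-ratios factors.

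Abca1, the transporter that loads lipid-poor apolipoproteins, was at 51.8, 23.3, 18.8 and 93.5 CPM from naive to day 3 in control. The A20 cKO libraries held 98.1, 65.1, 72.2 and 92.1 CPM. The control day 1 and day 2 libraries were the lowest of the 8, each apart from its neighbour in the order beyond counting error, whereas A20 cKO naive, control day 3 and A20 cKO day 3 did not differ beyond it. All 5 linked libraries lay above the other 3, at 65.1 to 98.1 against 18.8 to 51.8 CPM. A high Abca1 level thus ran with the barcode split, control day 3 included. A20 cKO day 1 and control naive, next to each other across the split, did not differ beyond counting error. Control naive was 2.24-fold above control day 1 (log2 ratio of day 1 to naive -1.16, -1.51 to -0.79) and 2.76-fold above day 2 (-1.47, -1.81 to -1.09). In A20 cKO the same ratios were -0.59 (-0.82 to -0.37) and -0.44 (-0.66 to -0.23), and on day 3 the ratio was -0.09 (-0.31 to 0.12). The sign of the A20 cKO day 2 ratio turned without cells of the cell cycle and interferon classes.

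Abcg1, the transporter that passes cholesterol to lipoprotein particles, was at 35.8, 5.83, 7.71 and 32.4 CPM from naive to day 3 in control and at 19.96, 18.5, 16.2 and 25.6 CPM in A20 cKO. The control day 1 and day 2 intervals (4.64 to 7.24 and 6.41 to 9.21 CPM) lay below those of all other libraries. Control naive was 6.15-fold above control day 1 (log2 ratio of day 1 to naive -2.62, -3.12 to -2.11) and 4.66-fold above control day 2 (-2.22, -2.68 to -1.74). In A20 cKO the intervals of the ratios of all 3 days to naive included 0.

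Counted by a fold of at least 2 among genes with at least 100 UMIs in both libraries together, all 8 genes could be compared on control day 1 against naive, where 1 (Sqle) was higher and 2 (Abca1 and Abcg1) were lower. Of all 8866 genes compared there, 3.82% were higher and 7.25% lower by that fold. On control day 2 the same 3 genes passed, Sqle higher and both transporters lower, against 5.92% and 6.28% of all genes. On control day 3 none of the 6 genes with enough UMIs passed (8.76% higher and 2.32% lower of all genes), although Fdft1, too low to be counted, was at 27 against 22 UMIs with a log2 ratio of -1.88 (-2.74 to -0.99). Against A20 cKO naive none of 6 genes passed on day 1 (1.56% higher and 1.39% lower of all genes), 1 of 6, Idi1, was higher on day 2 (2.86% and 2.65%; Sqle had too few UMIs to be counted) and none of 6 passed on day 3 (1.92% and 2%). The 3 comparisons of each genotype share its naive library.

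The median gene moved little in these comparisons. Its log2 ratio was -0.13 on control day 1 and -0.12 on control day 2 against naive. Relative to it, the ratios of control day 1 and day 2 to naive were -1.03 and -1.35 for Abca1, -2.49 and -2.10 for Abcg1, and 1.45 and 2.32 for Sqle. The ratio of Abca1 on control day 1 was close to the 2-fold mark on that scale, and with edgeR and median-of-ratios factors it was under it, at -0.92 and -0.98.

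Between genotypes, 4 of the 5 ratios past 2-fold were of the transporters. On day 1, 3 of 8 genes were at least 2-fold higher in A20 cKO than in control, Idi1 with a log2 ratio of 1.23 (0.76 to 1.68), Abca1 with 1.48 (1.22 to 1.74) and Abcg1 with 1.67 (1.15 to 2.17), where 15.5% of all genes were higher and 3.25% lower. On day 2, Abca1 with 1.94 (1.68 to 2.19) and Abcg1 with 1.08 (0.56 to 1.56) were higher, 2 of 8 against 10.7% of all genes, with 4.66% lower. With the library scaling factors of edgeR the ratios of Idi1 on day 1 and Abcg1 on day 2 were under 2-fold, which left 6 instead of 8 calls of higher genes over all 10 comparisons. The calls of lower genes stayed at 4, but Abca1 on control day 1 left them and Fdft1 on day 2, A20 cKO against control, joined them at -1.06 (-0.90 as reported here, -1.61 to -0.31). At the naive stage none of 6 genes passed (7.43% higher and 2.22% lower of all genes), while Fdft1, with too few UMIs to be counted, had a log2 ratio of -1.21 (-1.93 to -0.40). The transporters lay on opposite sides there. Abca1 was higher in A20 cKO with a log2 ratio of 0.91 (0.60 to 1.26) and Abcg1 lower with -0.85 (-1.28 to -0.39). On day 3, the comparison within the linked libraries, none of 6 genes passed (1.86% higher and 2.4% lower of all genes), and the ratios were -0.02 (-0.24 to 0.19) for Abca1 and -0.33 (-0.76 to 0.06) for Abcg1.

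**Figure D2:**
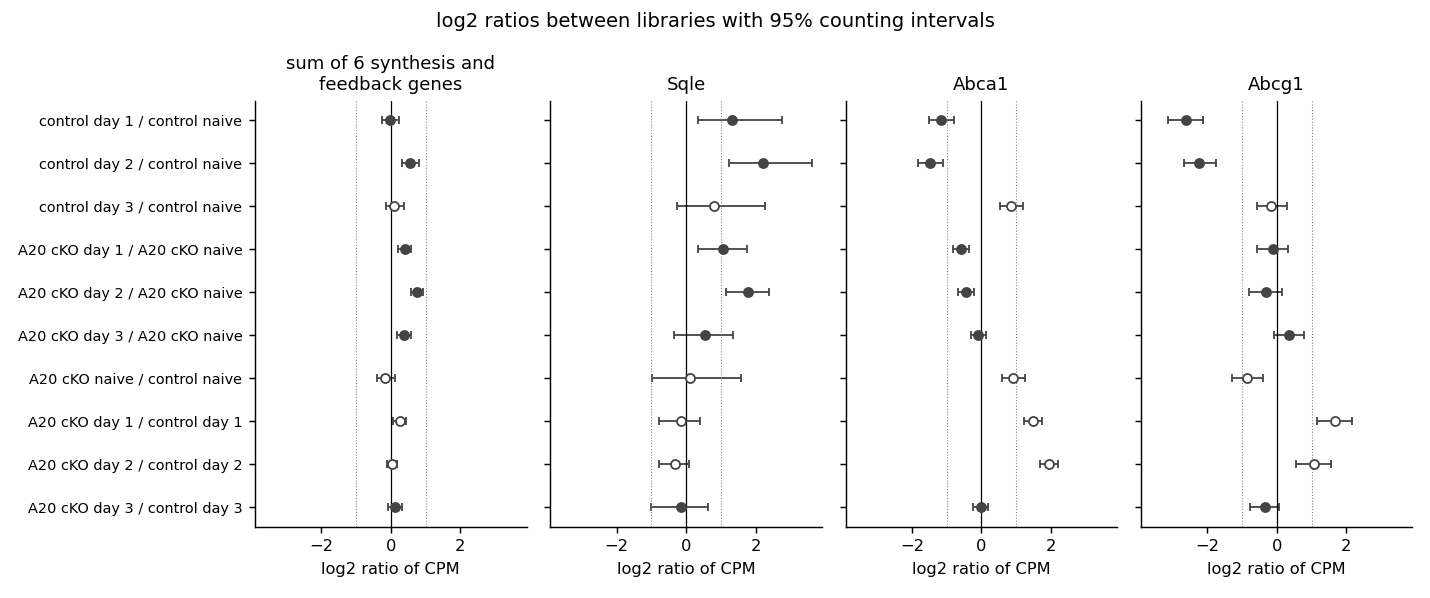
log2 ratio of CPM (x axis) for the sum of the 6 synthesis and feedback genes, Sqle, Abca1 and Abcg1 in 10 comparisons between single libraries (y axis), with exact 95% intervals and dotted lines at 2-fold. Filled points compare libraries on the same side of the barcode split and open points cross it. Libraries outside the linked set were not linked to one another. On control days 1 and 2 both transporters lie left of -1, and on A20 cKO day 3 against control day 3 all 4 intervals include 0.

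As shares of cells the genes were rare. In cells thinned to 2000 UMIs, which leaves equal depth per cell, Abca1 had a UMI in 8.96% of control naive cells (6.61% to 11.8%), 4.59% on day 1 and 3.71% on day 2, and in 16.3% on day 3. The A20 cKO shares were 16.7% at the naive stage, 11.1% on day 1, 12.3% on day 2 and 13.4% on day 3. Without thinning the Abca1 shares were 13.2%, 9.18%, 7.53% and 23.7% in control, while A20 cKO had 23.2%, 17.4%, 22.8% and 28.5%. Thinned, Abcg1 was found in 5.58%, 1.12%, 1.61% and 5.64% of control cells and in 4.10%, 3.98%, 2.24% and 4.83% of A20 cKO cells. The low control day 1 and day 2 values of both transporters thus appeared in the share of cells as in the level. Sqle had a UMI in 0.598%, 2.33%, 3.91% and 1.28% of the control cells so thinned. In A20 cKO its shares were 0.995%, 1.81%, 2.40% and 0.558%. Any of the 6 synthesis and feedback genes was found in 13.9% to 20.5% of thinned cells. No cell type known to lack these genes was sorted, so the share that free RNA gives was not measured. A lower sum can come from fewer cells with the RNA or less RNA per cell, and for genes this sparse these cannot be told apart.

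The summed RNA of the 6 synthesis and feedback genes was not spread evenly over the cell cycle. The G2/M class was the cells with UMIs of at least 3 of 18 genes of late cell cycle, and the S class those with at least 3 of 12 replication genes and outside the G2/M class, both in cells thinned to 2000 UMIs. The G2/M class held 0.199%, 0.0930%, 13.4% and 8.20% of control and 2.72%, 2.89%, 12.1% and 5.76% of A20 cKO cells at the naive stage and on days 1, 2 and 3, and 6 libraries had the 20 cells required for a value. In these the sum of the 6 genes was higher in the G2/M class than in cells outside both classes in 5 of 6 libraries, each time with an interval above 0, at a median log2 ratio of 0.81 (range -0.23 to 1.27, n = 6 libraries). The control day 2 values were 162 against 111 CPM from 151 and 615 UMIs, and those of A20 cKO day 2 were 257 against 113 CPM from 39 and 119 UMIs. The exception, A20 cKO day 1, rested on 4 UMIs in 24 cells.

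Cyp51 was the clearest member of the group. It was higher in the G2/M class in all 5 libraries with more than 3 UMIs on each side. There 4 intervals lay above 0, and the median log2 ratio was 1.72. On A20 cKO day 1, left out with 1 Cyp51 UMI in the class, it was lower, at 20.8 against 28.95 CPM. Sqle could be compared in control day 2 alone, at 30.1 against 18.0 CPM (log2 ratio 0.76, 0.08 to 1.36). Insig1 was higher in 4 of 4 libraries, at a median of 1.04, but with no interval above 0. With 1 Insig1 UMI in the class, A20 cKO day 1 was left out and was lower, at 20.8 against 25.7 CPM. A20 cKO day 3, left out with 1 UMI as well, was higher, at 16.1 against 14.4 CPM. Idi1 was higher in 3 of 3, at a median of 0.98 with 1 interval above 0. Among the libraries left out, Idi1 was lower in A20 cKO naive, with 1 UMI in the class (7.04 against 8.6 CPM). It was lower on A20 cKO day 1 too, with 0 UMIs, and higher on A20 cKO day 3, with 3 UMIs (48.4 against 19.5 CPM). Hmgcs1 was near even, at a median of 0.08 in 3 libraries and with no interval above 0. In A20 cKO naive, day 1 and day 3, with 2, 0 and 1 UMIs in the class, Hmgcs1 was lower there than in the other cells. The transporters went the other way, and their sum was lower in the G2/M class in 4 of 4 libraries, with 1 interval below 0 and a median of -0.67. In the S class the sum of the 6 genes was higher in 6 of 7 libraries, with 2 intervals above 0 and a median of 0.31.

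**Figure D3:**
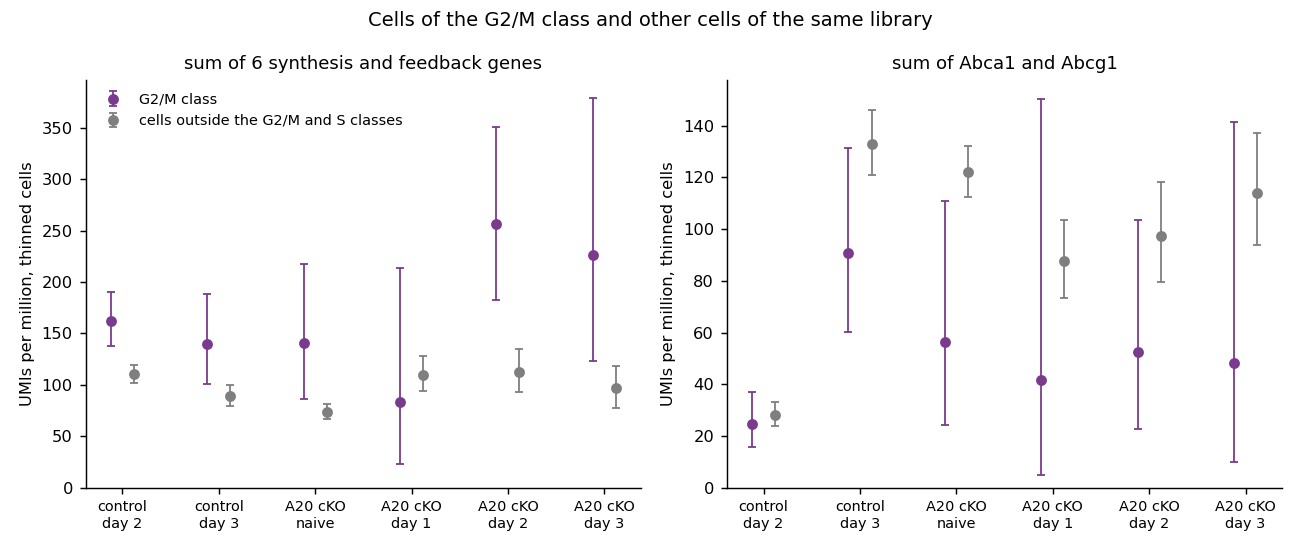
Summed level in CPM of cells thinned to 2000 UMIs (y axis, from 0) for the 6 synthesis and feedback genes (left) and for Abca1 and Abcg1 (right) in the G2/M class (purple) and in cells outside the G2/M and S classes (gray) of the 6 libraries with at least 20 class cells (x axis), with exact 95% Poisson intervals. The 6-gene sum is higher in the class in 5 of 6 libraries, such as 162 against 111 CPM on control day 2.

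The day 2 levels were also computed without cells of the G2/M, S and interferon classes, the last being cells with at least 3 of 8 interferon-induced genes. Without them the log2 ratio of the 6-gene sum on day 2 against naive was 0.25 (-0.0012 to 0.52) in control and 0.21 (-0.25 to 0.62) in A20 cKO, against 0.55 and 0.75 in all cells. Sqle on control day 2 stayed above naive at 1.86 (0.87 to 3.30), from 125 and 7 UMIs. Cyp51 on control day 2 was at 0.22 (-0.29 to 0.81). On A20 cKO day 2 the ratios of the remaining cells to naive were 0.94 (-1.67 to 2.61) for Sqle, from 3 and 14 UMIs, -0.03 (-1.21 to 0.85) for Cyp51 and 0.61 (-0.66 to 1.59) for Idi1. Each was lower than in all cells, and the interval of each included 0, so a difference on A20 cKO day 2 was not detectable in them at this depth. The transporters on control days 1 and 2 stayed low, with ratios to naive of -1.07 and -1.17 for Abca1 and -2.62 and -2.04 for Abcg1. In A20 cKO the Abca1 ratio stayed below 0 on day 1, at -0.55 (-0.88 to -0.25), and turned in sign on day 2, at 0.21 (-0.16 to 0.54). These classes were called without thinning, so deeper cells were removed more often, and 202 of 667 A20 cKO day 2 cells remained. In thinned cells outside only the G2/M and S classes, the 6-gene sum was higher on A20 cKO day 2. It was at 113 CPM against 73.8 CPM in A20 cKO naive. There Cyp51 was at 28.4 against 17.4 CPM, Idi1 at 24.6 against 8.6 CPM and Hmgcs1 at 19.9 against 20.4 CPM. The interferon class held 45.2% of thinned A20 cKO day 2 cells and 21.4% of A20 cKO naive cells. Which class the lower ratios came from was not tested.

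The interferon class moved with the barcode split. It held 21.4% to 50.4% of thinned cells in the 5 linked libraries and 0.434% to 1.20% in the other 3. Against cells with none of its 8 genes, the 6-gene sum was higher in the class in 5 of 6 libraries, with 2 intervals above 0 and a median log2 ratio of 0.43. The sum of Abca1 and Abcg1 was higher in 3 of 5 libraries, with 1 interval above 0 in control day 3, at 164 against 113 CPM. With the cells of all 3 classes left out, the day 1 and day 2 ratios of A20 cKO to control were 1.48 (1.13 to 1.81) and 2.34 (1.92 to 2.73) for Abca1, close to or above those of all cells.

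As a sum, the other synthesis and feedback genes were higher in cells with an Sqle UMI. Few cells held more than 1 of the 6 genes, between 0.996% and 2.97% of thinned cells per library. Gene by gene, intervals lay above 0 in 2 of 4 libraries for Cyp51 and for Hmgcs1. They did so in 1 of 4 for Insig1, 1 of 2 for Idi1 and 0 of 1 for Fdft1. In cells with an Sqle UMI the other 5 synthesis and feedback genes together were at 160, 154 and 250 CPM on control days 1, 2 and 3, where cells with none held 78.1, 97.2 and 86.6 CPM. In A20 cKO naive, day 1 and day 2 they were at 289, 300 and 600 CPM against 71.0, 96.9 and 106 CPM. All 6 intervals lay above 0, with log2 ratios between 0.68 and 2.54 and a median of 1.65. Control naive and A20 cKO day 3 had 3 cells each with an Sqle UMI, too few for a ratio. Outside the G2/M and S classes, a setting chosen after the data were seen, the median was 1.71 with all 6 intervals above 0, and on control day 2, where 27.2% of the Sqle cells against 20.1% of all cells were in these classes, it was 0.72 (0.10 to 1.23).

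The transporters were read in the same way. In cells with an Abca1 UMI against cells with none, the Abcg1 log2 ratio was above 0 in 6 of 6 libraries with enough UMIs. The intervals of 2 lay above 0, namely control day 3 at 50.7 against 26.1 CPM and A20 cKO naive at 37.9 against 17.5 CPM. In A20 cKO day 3 the levels were near even, at 27.8 against 27.9 CPM. Control day 1 and A20 cKO day 1 were left out, with 1 and 2 Abcg1 UMIs in the cells with Abca1. There Abcg1 was lower in those cells, at 3.38 against 5.69 CPM and at 10.9 against 23.0 CPM. The 6 synthesis and feedback genes were lower in the cells with Abca1 in 7 of 8 libraries, but only the A20 cKO day 2 interval excluded 0 (log2 ratio -1.54, -2.97 to -0.56).

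**Figure D4:**
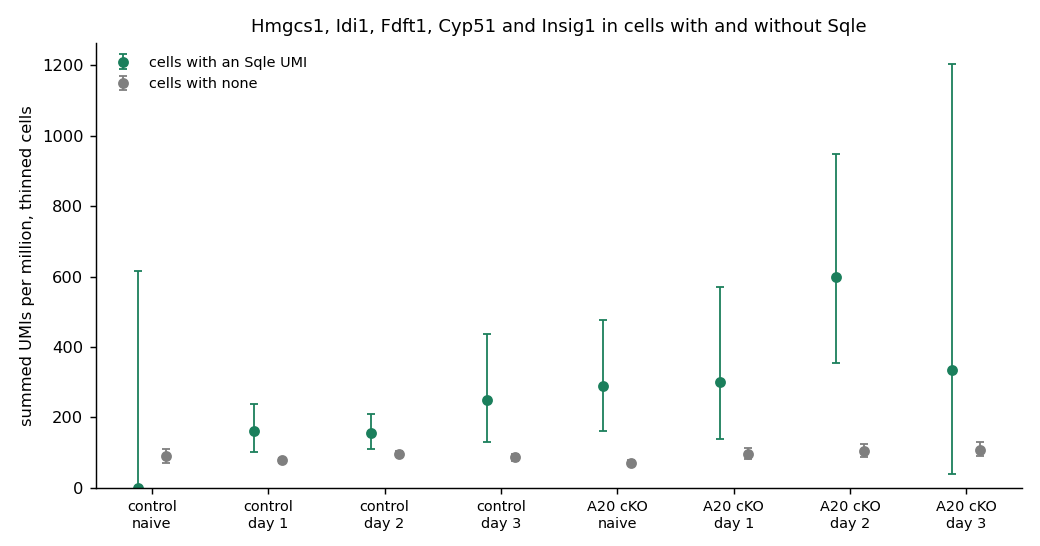
Summed level of Hmgcs1, Idi1, Fdft1, Cyp51 and Insig1 in CPM (y axis, from 0) in cells with an Sqle UMI (green) and cells with none (gray) of each library (x axis), all cells thinned to 2000 UMIs, with exact 95% Poisson intervals. In the 6 libraries with at least 15 Sqle cells the green points lie between 154 and 600 and the gray points between 71.0 and 106 CPM.

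Other genes of the pathway were read from 4 lists. Of 16 further synthesis enzymes, 12 had enough UMIs on control day 2 against naive and 2 were at least 2-fold higher, Fdps (farnesyl diphosphate synthase) at 56.6 against 23.5 CPM and Sc5d (sterol C5 desaturase) at 32.0 against 12.3 CPM, with none lower. The median log2 ratio of these enzymes was 0.48, where that of all genes was -0.12. On A20 cKO day 2 none of 10 passed, 9 were above 0 and the median was 0.27, where that of all genes was -0.07. On day 1 the medians were -0.01 in control and 0.34 in A20 cKO. Between genotypes on day 2, 2 of 13 were at least 2-fold lower in A20 cKO, Acat2 (acetyl-CoA acetyltransferase) at 12.2 against 25.1 CPM and Mvd (mevalonate diphosphate decarboxylase) at 4.29 against 9.67 CPM, where 4.66% of all genes were lower. There 3 of the 13 were above 0 and the median was -0.56, where that of all genes was 0.06. The sum of the 6 members differed by a log2 ratio of 0.04. That comparison crosses the barcode split, and control day 3, a linked library, was also low, at 9.61 CPM for Acat2 and 4.53 CPM for Mvd.

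Of the 6 sterol-sensing and SREBP-processing genes, Mbtps1, which encodes the protease that cleaves SREBP2, was lower by the 2-fold rule on control day 1 (18.6 against 40.1 CPM), and Srebf1 on control day 2 (9.36 against 20.4 CPM). Srebf2, which encodes SREBP2, lay at the mark on control day 1, at 9.96 against 19.8 CPM, and passed only with the 0.5 UMIs added to each sum (log2 ratio -1.01). Relative to the median gene, Srebf2 and Mbtps1 were at -0.88 and -0.99, both under 2-fold. Their list lay at median log2 ratios of -0.75 and -0.50 on those days. None passed in the A20 cKO days, with medians of 0.26, -0.10 and -0.20 on days 1, 2 and 3. Among 10 genes of uptake, transport and storage, Npc1, the exporter of cholesterol from lysosomes, was lower on control day 1 (50.01 against 106 CPM, log2 ratio -1.09, or -0.96 relative to the median gene). Soat1, which esterifies cholesterol for storage, was higher in A20 cKO than in control on day 1 (96.8 against 42.5 CPM) and day 2 (92.0 against 41.4 CPM). Both comparisons cross the barcode split. All linked libraries were at 84.3 to 124 CPM, against 41.4 to 72.2 CPM in control naive, day 1 and day 2. A high Soat1 level thus ran with the split, control day 3 included.

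Among 11 genes of LXR, its targets and oxysterol enzymes, Apoe, the main acceptor of exported cholesterol in the brain, was at 1113, 490, 470 and 310 CPM from naive to day 3 in control, and at 854, 1333, 1573 and 1928 CPM in A20 cKO. Control was highest at the naive stage and A20 cKO lowest there, and all 3 control days were at least 2-fold below naive. Unlike Abca1 and Abcg1, Apoe was lowest of all on control day 3. On A20 cKO day 3 against control day 3 its log2 ratio was 2.64 (2.57 to 2.71). Ch25h, which makes 25-hydroxycholesterol, was at 14.2, 0.782, 2.85 and 5.90 CPM in control, from 23, 11, 45 and 43 UMIs, and at 10.3, 13.2, 12.8 and 24.4 CPM in A20 cKO. Its control values for days 1 and 2 were below the UMI minimum for a call and were chosen after they were seen. On control day 1, 3 of 7 genes of this list were counted as lower, where 7.25% of all genes were. Apoe was 1 of them, and the other two, Abca7 at 6.26 against 12.3 CPM and Cyp27a1 at 24.5 against 48.8 CPM, passed only with the 0.5 UMIs added to each sum, and relative to the median gene they were at -0.88 and -0.87. On control day 2, 1 of 6, Apoe, was lower, where 6.28% of all genes were. The medians of the list were -0.29 and -0.49.

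**Figure D5:**
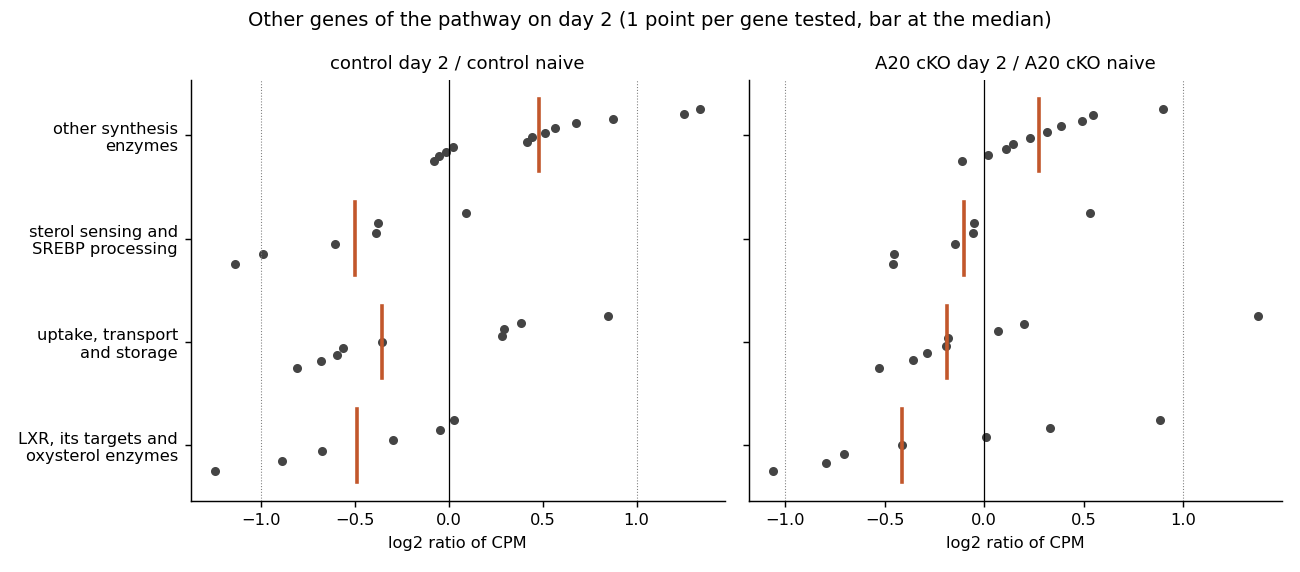
log2 ratio of CPM (x axis) on day 2 against naive in control (left) and A20 cKO (right) for each gene with at least 100 UMIs in both libraries together (points) of 4 lists of cholesterol genes (y axis), with the median of each list (orange bar) and dotted lines at 2-fold. The synthesis enzymes have medians of 0.48 and 0.27, and the list of LXR and its targets lies at -0.49 and -0.41.

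Among the members, profiles over the 8 libraries were compared by the root mean square difference of log2 CPM after each gene was centred on its mean. Abca1 and Abcg1 differed by 0.53, the 15 pairs within the 6 synthesis and feedback genes by a median of 0.62, and the 12 pairs between the groups by a median of 0.96. Over the 3469 genes whose mean reached 50 CPM, the profiles nearest to the mean of the 6 genes were those of Lsm5 (0.11), Cox6a1 (0.11) and Atox1 (0.12), where the median gene was at 0.41. Nearest to Abca1 were Kat6a (0.20), Erbb2ip (0.21) and Mpeg1 (0.23), and nearest to Abcg1 were Rnaset2b (0.35), Gal3st4 (0.37) and Uba7 (0.40), where the median genes were at 0.88 and 0.90. These distances describe 8 libraries of unequal depth and say nothing of shared control.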

How the data were processed

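Sparse matrices deposited by the authors for 8 libraries held unnormalized UMI counts of every gene in each barcode already called a cell. Cell Ranger 2.1.1 and mm10 stand in the submitters' processing notes. The chemistry version differs between labels and methods, and the use of strand is not given in the sources used here. Counts were summed over kept cells per library and scaled to 1000000 (CPM). For log2 ratios 0.5 UMIs were added to each sum. Intervals were exact Poisson for levels, exact Clopper-Pearson for shares and exact conditional for ratios. A class or same-cell ratio required more than 3 UMIs on each side. Cells were thinned without replacement to 2000 UMIs for shares, classes and same-cell values, and shallower cells were left out. Of the gene identifiers 27645 (98.7%) matched GENCODE M21. Python 3.11.15, numpy 2.4.6, scipy 1.17.1, R 4.3.3 and edgeR 4.0.16 (scaling factors only) were used, and the ratio and thinning code was tested on simulated data. Doublets were not called. Named genes were the 8 members, pathway-list genes past 2-fold (at most 6 per list) and the 3 nearest profiles of each kind. Some list genes past 2-fold are not reported here. Members and lists were chosen with earlier results of these data known.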

Additional observations from a re-analysis of the deposited data

How the results depend on the processing

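No paired analysis was possible because each group had 1 library, and for the same reason no replicate could be left out. No ratio past 2-fold changed its sign under any alternative. Of the ratios of the 2 sums between libraries, 192 of 221 stayed within the interval of the reported value. The exceptions follow as log2 ratios. Without cells of the G2/M, S or interferon class the 6-gene sum was 0.25 on control day 2 against naive, 0.63, 0.21 and 0.050 on A20 cKO days 1, 2 and 3 against naive, and -0.49, -0.53 and -0.50 for A20 cKO against control at the naive stage, day 2 and day 3, while the sum of Abca1 and Abcg1 was 0.24 and 0.38 on A20 cKO days 2 and 3 against naive and 2.15 and 0.25 for A20 cKO against control on days 2 and 3. Without cells holding a UMI of an oligodendrocyte, astrocyte, neuron or endothelial marker, the 6-gene sum was 0.47, 0.85 and 0.61 on control days 1, 2 and 3 and 1.09 on A20 cKO day 2 against naive, and 0.38 and 0.62 for A20 cKO against control at the naive stage and on day 2. The sum of the transporters was then -0.86, -0.20 and 0.40 on A20 cKO days 1, 2 and 3 against naive, and 1.25 and 0.35 for A20 cKO against control on days 1 and 3. That setting left few cells, and 18 instead of 68 comparisons of a gene had enough UMIs, with 5 calls higher and 2 lower. When Mag, Cnp, Slc1a3 and Pecam1 were not used to remove cells, a setting chosen after the data were seen, the transporters were at -0.74 on A20 cKO day 1 against naive. On day 1, A20 cKO against control, edgeR factors gave -0.045 and median-of-ratios size factors -0.023 for the 6-gene sum, and 1.22 and 1.24 for the transporters. On day 2 edgeR factors gave -0.13 for the 6-gene sum. The mean over cells of the CPM of each cell gave -0.21 for the transporters on A20 cKO day 2 against naive. Over the 10 comparisons 8 ratios were called higher and 4 lower at 2-fold, and 16 and 8 at 1.5-fold. The other alternatives gave 6 to 10 higher and 4 to 6 lower. Under both sets of factors Abca1 on control day 1 fell out of the calls and Fdft1 on day 2, A20 cKO against control, entered them. The cause of these shifts was not tested. Depth limits Sqle and Fdft1 most, with 7 to 336 and 13 to 228 UMIs per library.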
